A study of Mus musculus with 2 samples.

Results

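Integrins are the cell-surface adhesion receptors of animal cells, and the genes described here were the integrin genes of the tumour-infiltrating immune cells of the MC38 model. They were taken as every entry of the deposited gene list whose symbol starts with Itga or Itgb, which gave 32 of 27998 genes. Of these, 28 entries carry the symbol of an alpha or beta subunit, with a second entry for Itgam. The other 4 (Itgb1bp1, Itgb1bp2, Itgb3bp and Itgbl1) are named for an integrin but encode no subunit. In the cells kept, 20 of the 32 had at least 20 unique molecular identifiers (UMIs, each counting 1 captured RNA molecule), 12 had fewer, and 3 of those 12 (Itga2b, Itgb6 and Itgbl1) had none.

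Each integrin is a heterodimer of 1 alpha and 1 beta chain, and the pairing decides which ligand is bound. Leukocytes use the beta 2 family (LFA-1, Mac-1 and p150,95) to hold on to ICAM proteins and complement fragments, alpha 4 integrins to hold on to VCAM-1, MAdCAM-1 and fibronectin, alpha E beta 7 (CD103) to hold on to E-cadherin, and alpha v integrins to bind matrix proteins and to release active TGF-beta from its latent complex. In tumours these receptors are known for the entry, retention and cell contacts of T cells and myeloid cells.

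MC38 is a colon carcinoma line of the mouse, and its tumours were sorted for viable CD45+ cells, from which 10x Genomics 3' single-cell libraries were made. The 2 libraries were an anti-PD-1 library, from tumours injected daily with antibody against the T-cell inhibitory receptor PD-1 (200 µg for each mouse), and a control library, from control-injected tumours. Both came from C57BL/6J mice with intradermal tumours at 4 sites per mouse, first injected on day 7 and harvested on day 10, and how many mice went into a library is not stated. With 1 library in each group there is no replicate check and no test between conditions, so differences are between these libraries, and all intervals are 95% intervals that cover counting error only.

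The matrices held 13717817 UMIs for anti-PD-1 and 5203415 for control, and 3321 and 1174 cells were kept, with medians of 2763 and 3287 UMIs per cell. A UMI of Ptprc, which encodes CD45, was found in 75.5% of anti-PD-1 and 78.0% of control cells. Marker genes placed 90.6% of anti-PD-1 and 87.9% of control cells in 10 classes and 19 subtypes, whose names stand for those markers and for no more. The classes differed in size, with 1061 and 65 CD8 T cells, 157 and 81 Foxp3 T cells, 541 and 317 NK cells, 187 and 166 C1q macrophages, 313 and 146 monocytes, 133 and 71 dendritic cells, and 180 and 8 neutrophils in anti-PD-1 and control. The 8 control neutrophils carried macrophage genes at a summed 14040 CPM, against 42.9 CPM in the 180 anti-PD-1 neutrophils, so their values are not compared. The other T cells, which met no narrower T-cell gate, were led by genes known from regulatory T cells, among them Tnfrsf4, Lrrc32, Ikzf2 and Il2ra, and the regulatory T-cell list summed to 3726 and 4118 CPM there, against 6801 and 7335 CPM in Foxp3 T cells of anti-PD-1 and control. Both libraries shared 4 of the barcodes kept, and no integrin ratio moved beyond its interval without them. Integrin genes together made up 1003 CPM (UMIs scaled to a total of 1000000) of the anti-PD-1 and 963 CPM of the control library. A 3' library counts 1 tag per RNA molecule, so CPM were not divided by gene length, and capture may still differ between genes.

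The start regions of 4 members are shown because these genes were unevenly divided among the cells: Itgam mainly in myeloid cells, Itgax in myeloid cells, NK cells and the CD8 T cells of the anti-PD-1 library, Itgb7 at its highest level in Foxp3 T cells and Itgb8 mainly in Foxp3 and other T cells. They were picked after these values were seen. The sequences are RefSeq's (GRCm38.p6), each running from 250 bases before to 50 after the annotated start, at chr7:128062390-128062689 on the plus strand for Itgam, chr7:128129300-128129599 on the plus strand for Itgax, chr15:102231886-102232185 on the minus strand for Itgb7 and chr12:119238227-119238526 on the minus strand for Itgb8. Capitals mark GAGGAA or its reverse TTCCTC, the core that the myeloid and lymphoid factor PU.1 binds, and TGTGGT or its reverse ACCACA, the core that Runx factors bind.
Itgam: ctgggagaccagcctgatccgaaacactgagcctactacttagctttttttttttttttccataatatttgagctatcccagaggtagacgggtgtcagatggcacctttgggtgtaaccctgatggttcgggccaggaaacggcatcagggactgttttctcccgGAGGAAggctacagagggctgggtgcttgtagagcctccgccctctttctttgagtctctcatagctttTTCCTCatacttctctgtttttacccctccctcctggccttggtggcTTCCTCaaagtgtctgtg
Itgax: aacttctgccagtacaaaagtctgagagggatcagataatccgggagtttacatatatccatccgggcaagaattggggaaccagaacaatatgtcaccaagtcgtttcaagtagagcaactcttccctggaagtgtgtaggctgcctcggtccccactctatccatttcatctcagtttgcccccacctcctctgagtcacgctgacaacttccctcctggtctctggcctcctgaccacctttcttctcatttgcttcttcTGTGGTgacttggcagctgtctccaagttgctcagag
Itgb7: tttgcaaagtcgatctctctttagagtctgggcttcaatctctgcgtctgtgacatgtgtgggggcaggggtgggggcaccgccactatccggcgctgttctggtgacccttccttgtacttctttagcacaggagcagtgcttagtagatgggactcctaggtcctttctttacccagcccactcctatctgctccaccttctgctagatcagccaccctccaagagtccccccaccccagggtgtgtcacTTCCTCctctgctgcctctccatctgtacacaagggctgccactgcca
Itgb8: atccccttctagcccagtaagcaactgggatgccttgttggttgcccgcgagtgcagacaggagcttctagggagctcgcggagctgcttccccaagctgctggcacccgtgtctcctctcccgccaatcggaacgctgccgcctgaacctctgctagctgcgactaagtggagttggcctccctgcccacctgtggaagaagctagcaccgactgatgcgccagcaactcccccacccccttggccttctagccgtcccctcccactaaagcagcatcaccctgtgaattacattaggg
The GAGGAA core occurred 3 times in the Itgam window, 1 time in that of Itgb7 and in neither of the others, and the TGTGGT core occurred 1 time, in the Itgax window. Among all 32851 promoter windows of this length, 28.3% held the first core and 16.8% the second. Of the 14 members reported here that had a window, 5 held the first (Itga5, Itgam, Itgav, Itgb1 and Itgb7) and 2 the second (Itga4 and Itgax). A match is a description of letters and no measure of binding. In GENCODE vM21 Itgb8 starts at 119238802, outside the window shown, so its lack of a core holds for the RefSeq start alone.

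**Figure D1:**
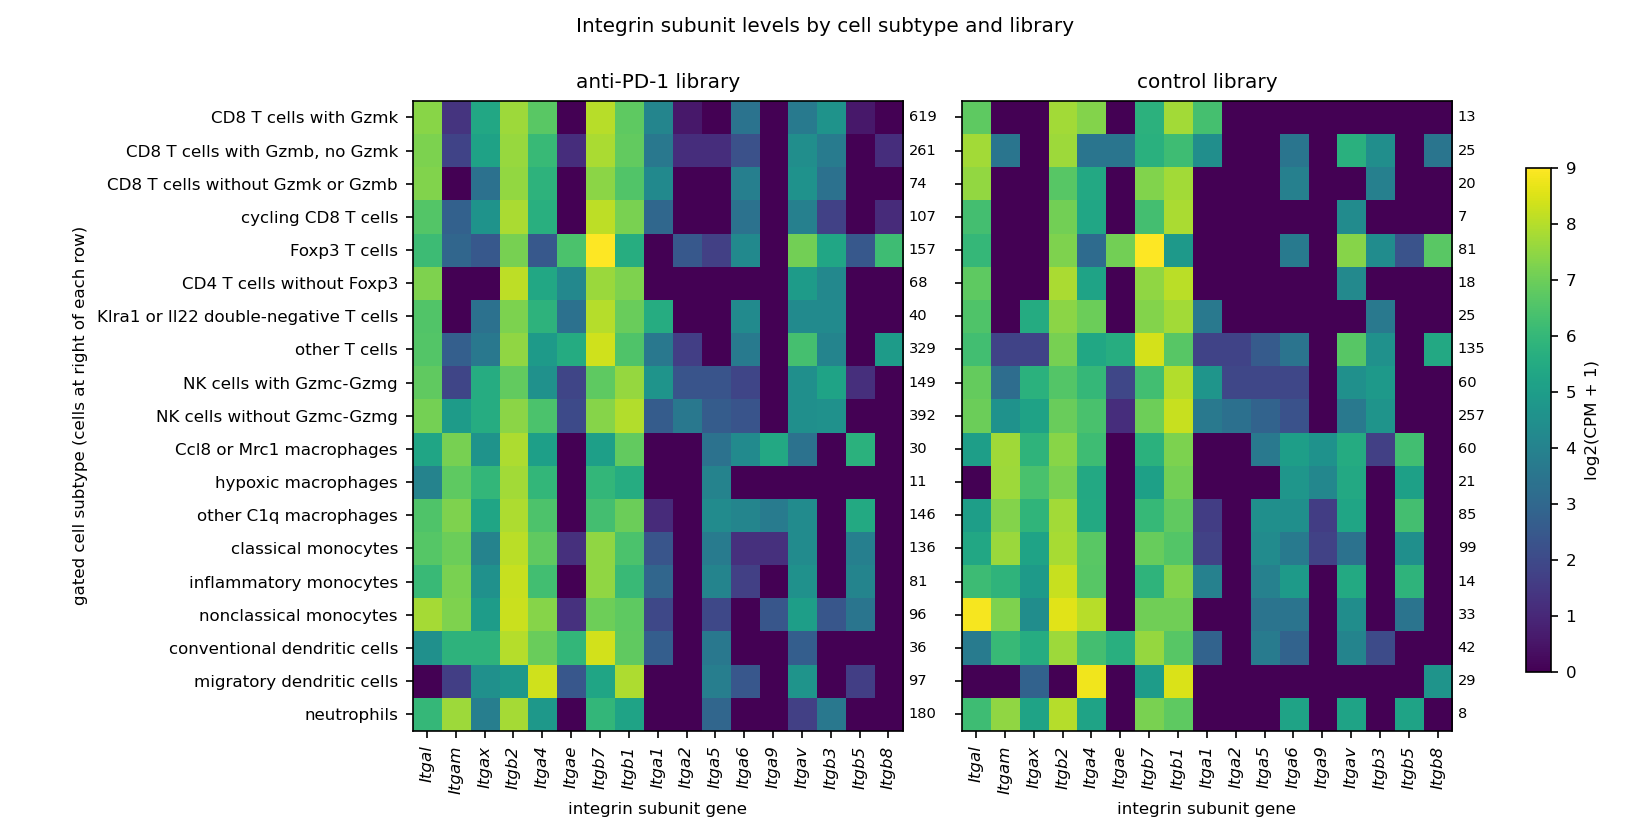
Levels of 17 integrin subunit genes, as log2(CPM + 1), in 19 gated subtypes of the anti-PD-1 library (left) and the control library (right), with the number of cells at the right of each row. Itgb2 was detected in every subtype except control migratory dendritic cells, Itgb8 was brightest in Foxp3 T cells (73.3 CPM for anti-PD-1 and 103 CPM for control), and Itga4 in migratory dendritic cells (326 and 443 CPM).

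The beta 2 family was read first. Itgb2 (ENSMUSG00000000290, GRCm38 chromosome 10, 77530252 to 77565708, plus strand) encodes the shared beta chain, CD18, and was the most abundant subunit gene of the anti-PD-1 library, with 2469 UMIs, against 780 in the control library. Its class levels were highest in monocytes, at 293 CPM (268 to 318) for anti-PD-1 and 261 CPM (221 to 306) for control. In C1q macrophages it was at 234 CPM (206 to 263) for anti-PD-1 and 187 CPM (162 to 216) for control, and in NK cells at 147 CPM (130 to 166) for anti-PD-1 and 114 CPM (95.1 to 135) for control. The subtype extremes were the nonclassical monocytes, marked by Ace, Treml4 and Cd300e, with 313 and 384 CPM, and the migratory dendritic cells, marked by Ccr7 and Fscn1, with 26.6 CPM from 12 UMIs in the anti-PD-1 and no UMI in the control library. Conventional dendritic cells had 254 CPM for anti-PD-1 and 206 CPM for control, so the low level concerned the migratory dendritic cells alone among the 19 subtypes.

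Its partners lie on chromosome 7, where Itgam and Itgax are neighbours. Itgal (ENSMUSG00000030830, 127296260 to 127335138, plus strand) encodes the alpha chain of LFA-1, the lymphocyte receptor for ICAM-1 and ICAM-2. Its highest level was in nonclassical monocytes, with 221 CPM from 152 UMIs in the anti-PD-1 and 464 CPM from 46 UMIs in the control library, above CD8 T cells at 148 CPM (136 to 161) and 164 CPM (118 to 222). NK cells had 126 CPM for anti-PD-1 and 122 CPM for control and Foxp3 T cells 71.0 CPM for anti-PD-1 and 63.2 CPM for control. Migratory dendritic cells had no Itgal UMI in either library, which allows up to 6.66 CPM in the 97 anti-PD-1 and 18.2 CPM in the 29 control cells, and conventional dendritic cells had 22.1 and 12.5 CPM. In both libraries, then, nonclassical monocytes lay above classical ones, which had 98.5 CPM for anti-PD-1 and 40.7 CPM for control.

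Itgam (ENSMUSG00000030786, 128062640 to 128118491, plus strand) encodes CD11b, the alpha chain of Mac-1 and a receptor for the complement fragment iC3b. It stood at 203 CPM in anti-PD-1 neutrophils, at 149 CPM (127 to 173) and 186 CPM (161 to 215) in C1q macrophages and at 140 and 174 CPM in monocytes of anti-PD-1 and control. CD8 T cells had 2.61 CPM in the anti-PD-1 library, where free RNA alone would give 2.35 CPM, and 3.91 CPM from 1 UMI in the control library. In NK cells the Itgam level was 17.9 CPM for anti-PD-1 and 18.2 CPM for control. NK cells with the granzymes Gzmc to Gzmg had 2.67 CPM for anti-PD-1 and 8.23 CPM for control, from only 2 and 3 UMIs. Those without had 29.5 and 22.9 CPM, from 29 and 18 UMIs, and the difference was not tested. The gene list holds a second entry with the symbol Itgam (ENSMUSG00000108596, 128062683 to 128128160), which shares 3450 of the 5024 exon bases of Itgam, 68.7%. GENCODE vM21 names this entry Gm49368 and not Itgam. It took 44 UMIs in the anti-PD-1 and 10 in the control library, and how reads in the shared bases were counted was not tested, so the Itgam levels are uncertain.

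Itgax (ENSMUSG00000030789, 128129547 to 128150657, plus strand) encodes CD11c, the alpha chain used as a label of dendritic cells. The dendritic cell class, at 31.6 CPM for anti-PD-1 and 32.9 CPM for control, lay below NK cells and C1q macrophages in both libraries. Conventional dendritic cells had 55.2 and 46.7 CPM, NK cells 46.7 and 40.8 CPM, C1q macrophages 37.2 CPM (26.9 to 50.1) and 60.5 CPM (46.4 to 77.6), and migratory dendritic cells 22.2 and 6.07 CPM in anti-PD-1 and control. These levels are close to one another, and the intervals of macrophages, NK cells and dendritic cells overlap within the anti-PD-1 library. CD8 T cells of the anti-PD-1 library had 34.2 CPM (28.6 to 40.6) from 131 UMIs, whereas the 65 control CD8 T cells had no Itgax UMI, which allows up to 11.7 CPM (3 UMIs).

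The CD8 T cells with an Itgax UMI were 114 of 1061 in the anti-PD-1 library, or 10.7%, and 3.11% with every cell thinned to 1000 UMIs. In the same library, Foxp3 T cells had 1.27% at a median depth of 2285 UMIs, against 2961 UMIs for CD8 T cells, and no cell among 68 CD4 T cells without Foxp3 had one. Among CD8 T cells of the anti-PD-1 library, those with Gzmk had 41.1 CPM, those with Gzmb and no Gzmk 35.8 CPM, cycling cells 23.5 CPM, and those with neither granzyme 9.20 CPM from 2 UMIs. Free RNA would give 1.04 CPM. The myeloid marker genes summed to 107 CPM in CD8 T cells of the anti-PD-1 and to 93.8 CPM in those of the control library, and type 2 dendritic cell genes to 20.4 and 3.9 CPM. In the 699 anti-PD-1 CD8 T cells without any UMI of the myeloid or C1q marker genes, Itgax was at 38.1 CPM, and in the 44 such control cells it had no UMI.

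The alpha 4 and beta 7 chains came next. Itgb7 (ENSMUSG00000001281, chromosome 15, 102215995 to 102231944, minus strand) encodes the beta chain of the gut-homing receptor alpha 4 beta 7 and of CD103. Foxp3 T cells had the highest level, at 515 CPM (450 to 587) in the anti-PD-1 and 506 CPM (422 to 601) in the control library, and 65.6% and 67.9% of them had a UMI. The other T cells had 323 CPM for anti-PD-1 and 342 CPM for control, and conventional dendritic cells 331 CPM for anti-PD-1 and 190 CPM for control. In CD8 T cells the intervals of the libraries did not overlap, with 252 CPM (236 to 269) for anti-PD-1 and 86.0 CPM (53.9 to 130) for control. In the anti-PD-1 library, those with Gzmk (260 CPM), with Gzmb alone (234 CPM) and cycling (274 CPM) all lay above the control values of 53.4, 51.7 and 77.9 CPM, which rest on 2, 5 and 4 UMIs. CD8 T cells with neither granzyme had 170 CPM for anti-PD-1 and 157 CPM for control.

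Itga4 (ENSMUSG00000027009, chromosome 2, 79255426 to 79333123, plus strand) encodes CD49d, which pairs with beta 1 to bind VCAM-1 or with beta 7 to bind MAdCAM-1. Migratory dendritic cells had the highest level in both libraries, 326 CPM from 147 UMIs in the anti-PD-1 and 443 CPM from 73 UMIs in the control library. Nonclassical monocytes followed with 163 CPM for anti-PD-1 and 262 CPM for control, and conventional dendritic cells had 121 CPM for anti-PD-1 and 77.8 CPM for control. At the other end stood Foxp3 T cells, with 4.58 and 7.90 CPM (2 UMIs in each library), whereas CD8 T cells had 81.3 CPM (72.5 to 90.8) for anti-PD-1 and 46.9 CPM (24.2 to 81.9) for control. Foxp3 T cells thus combined the highest Itgb7 with the lowest Itga4 level among the T and NK classes in both libraries.

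Itgae (ENSMUSG00000005947, chromosome 11, 73090583 to 73147446, plus strand) encodes CD103, the other partner of beta 7 and the receptor for E-cadherin, known from tissue-resident T cells and type 1 dendritic cells. Foxp3 T cells had 87.0 CPM (61.6 to 119) in the anti-PD-1 and 134 CPM (93.0 to 188) in the control library, with a UMI in 17.2% and 29.6% of cells. Conventional dendritic cells had 60.7 CPM from 11 UMIs for anti-PD-1 and 49.8 CPM from 16 UMIs for control, and other T cells 45.5 and 47.4 CPM. CD8 T cells had 0.261 and 3.91 CPM, from 1 UMI in each library, and C1q macrophages none, at median depths of 5936 UMIs for anti-PD-1 and 5627 for control. The highest Itgae levels thus lay in Foxp3 T cells, in conventional dendritic cells and in the other T cells, which share regulatory T-cell genes with the Foxp3 class, and CD8 T cells had hardly any.

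Itgb1 (ENSMUSG00000025809, chromosome 8, 128685654 to 128733200, plus strand) encodes CD29, the beta chain with the most alpha partners. It was high in migratory dendritic cells, at 235 and 358 CPM, and in NK cells, at 224 CPM (203 to 248) and 285 CPM (255 to 317), where 46.2% and 56.8% of cells had a UMI in anti-PD-1 and control. Foxp3 T cells were lowest of the T cells, at 48.1 CPM for anti-PD-1 and 27.7 CPM for control. CD8 T cells had 116 CPM (105 to 127) for anti-PD-1 and 164 CPM (118 to 222) for control.

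The collagen, laminin and fibronectin receptors that pair with beta 1 were rarer. Itga1, which encodes the collagen receptor chain CD49a, had 100 UMIs in the anti-PD-1 and 30 in the control library, with 13.3 and 15.6 CPM in NK cells and 13.1 and 19.5 CPM in CD8 T cells. NK cells with Gzmc to Gzmg had 24 CPM for anti-PD-1 and 24.7 CPM for control of Itga1, from 18 and 9 UMIs. Those without had 5.08 CPM for anti-PD-1 and 11.4 CPM for control, from 5 and 9 UMIs, and the difference was not tested. Itga2, which encodes CD49b, a classic surface label of mouse NK cells, had 14 of its 24 anti-PD-1 UMIs (58.3%) and 8 of its 10 control UMIs (80.0%) in NK cells. Itga5, a fibronectin receptor chain, reached 17.3 and 14.6 CPM in C1q macrophages and had 1 UMI in anti-PD-1 and none in control CD8 T cells. Itga6, a laminin receptor chain, was at 15.6 CPM for anti-PD-1 and 26.4 CPM for control in C1q macrophages and 18.3 CPM for anti-PD-1 and 11.9 CPM for control in Foxp3 T cells. Itga9, a receptor chain for tenascin C and osteopontin, was the most restricted of these, with 80.0% of its 25 anti-PD-1 and 86.7% of its 15 control UMIs in C1q macrophages and none in T, NK or dendritic cells.

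The alpha v chains completed the set. Itgav (ENSMUSG00000027087, chromosome 2, 83724397 to 83806916, plus strand) encodes the alpha chain shared by the receptors for vitronectin and latent TGF-beta. It was highest in Foxp3 T cells, at 135 CPM (103 to 174) for anti-PD-1 and 162 CPM (116 to 220) for control, then in other T cells, at 81.0 and 99.8 CPM. C1q macrophages had 16.4 CPM (9.89 to 25.7) for anti-PD-1 and 42.0 CPM (30.4 to 56.6) for control, and CD8 T cells 14.9 and 23.5 CPM. Itgb8 (ENSMUSG00000025321, chromosome 12, 119158022 to 119238802, minus strand) encodes the beta chain of alpha v beta 8, the integrin by which regulatory T cells are known to activate TGF-beta. Foxp3 T cells had 73.3 CPM (50.1 to 103) from 32 UMIs in the anti-PD-1 and 103 CPM (67.1 to 150) from 26 UMIs in the control library, in 14.6% and 24.7% of cells. CD8 T cells had 2 Itgb8 UMIs for anti-PD-1 and 1 for control.

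Foxp3 T cells and other T cells together held most Itgb8 UMIs, 46.4% and 39.1% in the anti-PD-1 and 54.2% and 35.4% in the control library. NK cells, C1q macrophages and monocytes had no Itgb8 UMI in either library (NK cells at median depths of 2414 UMIs for anti-PD-1 and 3023 for control), and the 4 control dendritic cell UMIs lay in migratory cells. Itgb5 (ENSMUSG00000022817, chromosome 16, 33829665 to 33949338, plus strand) encodes the beta chain of a vitronectin receptor that takes part in the uptake of dead cells, and it had the opposite pattern. C1q macrophages held 57.0% of its anti-PD-1 and 76.5% of its control UMIs, at 42.4 CPM (31.4 to 56.0) and 73.2 CPM (57.6 to 91.8), and CD8 T cells had 0.261 CPM and none. Itgb3 (ENSMUSG00000020689, chromosome 11, 104608000 to 104670476, plus strand), the beta chain of the platelet and osteoclast receptors, was at 38.9 CPM for anti-PD-1 and 19.8 CPM for control in Foxp3 T cells and at 28.3 CPM for anti-PD-1 and 25.2 CPM for control in NK cells. Its platelet partner Itga2b had no UMI, and the platelet marker list had 0 of 6 members in Foxp3 T cells.

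**Figure D2:**
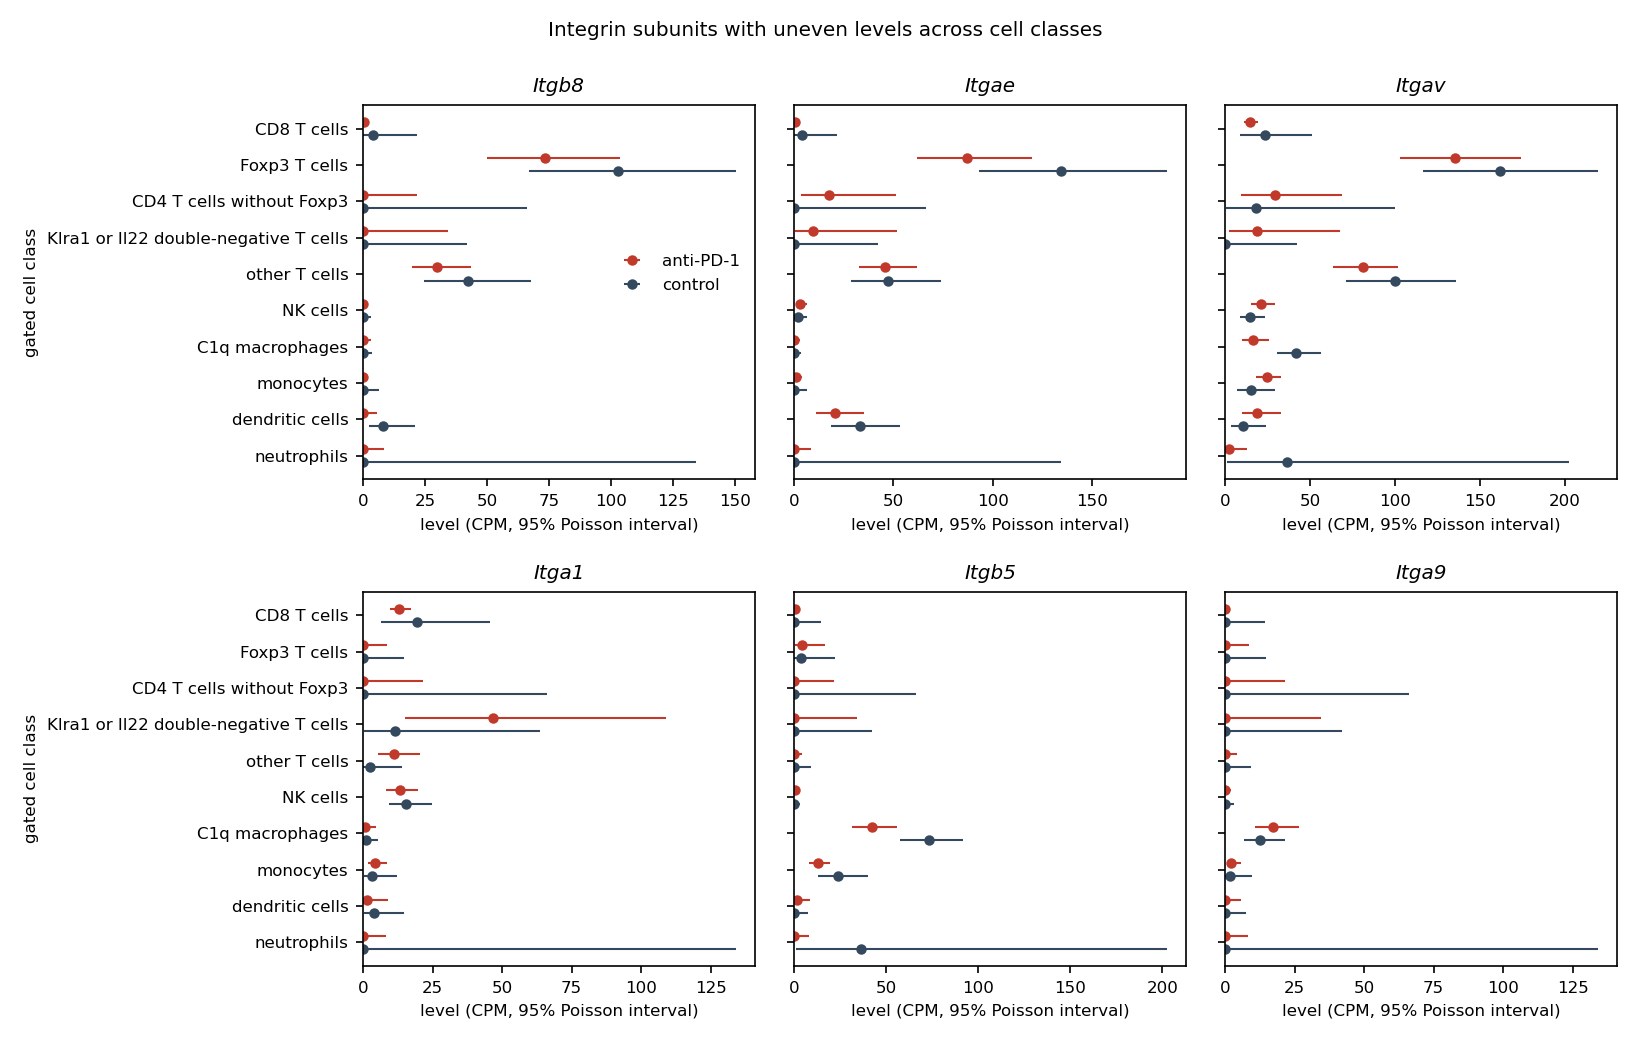
Levels in CPM of Itgb8, Itgae, Itgav, Itga1, Itgb5 and Itga9 by gated class, with the anti-PD-1 library beside the control library and 95% Poisson intervals as bars. Itgb8 and Itgae stand out in Foxp3 T cells, and Itgb5 (42.4 CPM for anti-PD-1 and 73.2 CPM for control) and Itga9 (17.3 and 12.7 CPM) in C1q macrophages.

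Of the members that are no subunit, Itgb1bp1, which encodes ICAP-1, a protein that binds the tail of beta 1, was at 118 CPM for anti-PD-1 and 97.7 CPM for control in CD8 T cells and at 47.6 CPM for anti-PD-1 and 54.7 CPM for control in C1q macrophages. Itgb3bp, which encodes the centromere protein CENP-R, was at 11.5 CPM from 44 UMIs in anti-PD-1 and 35.2 CPM from 9 UMIs in control CD8 T cells. The members under 20 UMIs included Itgb2l, a beta 2-like gene known from mouse neutrophils, with 15 UMIs in 10 of 180 anti-PD-1 neutrophils, 1 in a CD8 T cell of that library and none in the control library. Itga3 had 7 and 4 UMIs, Itgad 4 and 2, Itgb4 3 and 2, Itga7 4 and 0, Itga11 2 and 0, Itga8 1 and 0, Itga10 0 and 1, and Itgb1bp2 1 and 0 in anti-PD-1 and control. Itga8, Itga10 and Itgb4, known from stromal and epithelial cells, were thus at or near 0 in the sorted cells.

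Each class had its own makeup of beta chains. In Foxp3 T cells Itgb7 made up 62.7% of 359 beta UMIs in the anti-PD-1 and 62.1% of 206 in the control library, followed by Itgb2 (17.3% and 18.9%) and Itgb8 (8.91% and 12.6%). In NK cells Itgb1 led with 41.5% for anti-PD-1 and 53.2% for control, and in migratory dendritic cells it led with 77.9% and 85.5%. In monocytes (52.4% for anti-PD-1 and 51.2% for control) and C1q macrophages (50.4% and 42.0%) Itgb2 led, and Itgb5 added 9.14% and 16.4% in macrophages. CD8 T cells did not have the same leading chain in both libraries, with Itgb7 at 42.6% of 2263 anti-PD-1 UMIs and at 22 of 110 control UMIs, where Itgb2 and Itgb1 had 38.2% each. Among alpha chains, Itga4 made up 81.7% and 97.3% in migratory dendritic cells, Itgal 48.6% and 60.9% in CD8 T cells, Itgav 38.8% and 41.8% in Foxp3 T cells, and Itgam, with its 2 entries added up, 37.2% and 43.7% in C1q macrophages.

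**Figure D3:**
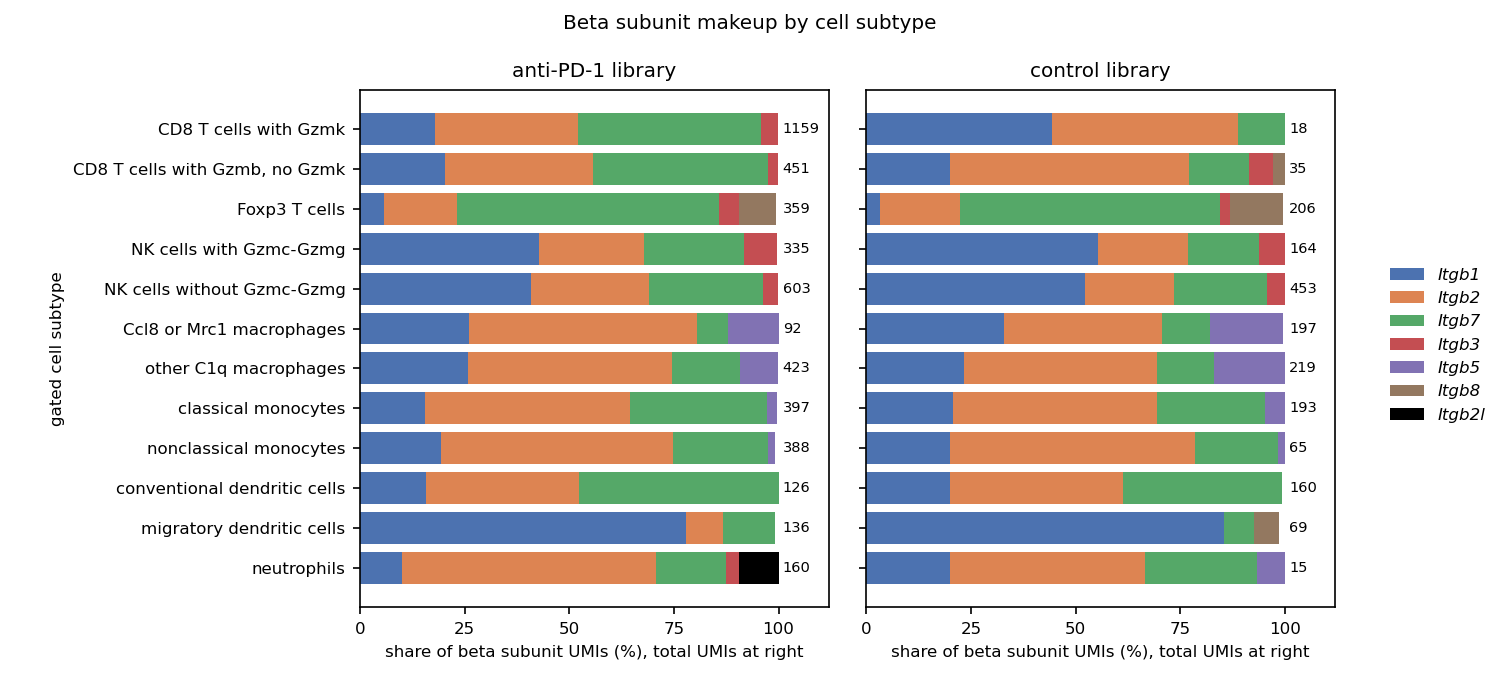
Share (%) of all beta subunit UMIs taken by each beta gene in 12 subtypes, anti-PD-1 library left and control library right, with the total beta UMIs at the right of each bar. Itgb7 fills most of the Foxp3 T-cell bar (62.7% for anti-PD-1 and 62.1% for control) and Itgb1 most of the migratory dendritic cell bar (77.9% and 85.5%).

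Co-detection was counted for the 24 known pairs, of which 20 were found in at least 1 cell and 9 in at least 50 cells. It grows with depth and with each subunit's own level, so the share that the subunits' separate shares would give by multiplication stands beside it. The LFA-1 pair Itgal and Itgb2 was found in 19.3% of anti-PD-1 CD8 T cells (18.1% by multiplication) and 26.2% of control ones (19.9%), and the Mac-1 pair Itgam and Itgb2 in 39.0% (35.5%) and 36.7% (30.7%) of C1q macrophages. The VLA-4 pair Itga4 and Itgb1 was in 34.6% (28.0%) of anti-PD-1 and 43.7% (38.1%) of control dendritic cells.

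In Foxp3 T cells, the CD103 pair Itgae and Itgb7 was in 21 anti-PD-1 cells, 13.4% (8.47 to 19.7), against 11.3% by multiplication, and in 22 control cells, 27.2% (17.9 to 38.2), against 20.1%. The TGF-beta-activating pair Itgav and Itgb8 was in 8 anti-PD-1 cells, 5.10% (4.29% by multiplication), and 11 control cells, 13.6% (9.14%). Control Foxp3 T cells were deeper, with a median of 2974 UMIs against 2285 in the anti-PD-1 library. At 1000 UMIs per cell, the CD103 pair was left in 3.18% of anti-PD-1 and 7.41% of control Foxp3 T cells, from 5 and 6 cells. The alpha 4 beta 7 pair was found in 1.27% of anti-PD-1 and 1.23% of control Foxp3 T cells, while 12.7% of anti-PD-1 CD8 T cells (11.1% by multiplication) and 3.08% of control ones (3.12%) had it.

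**Figure D4:**
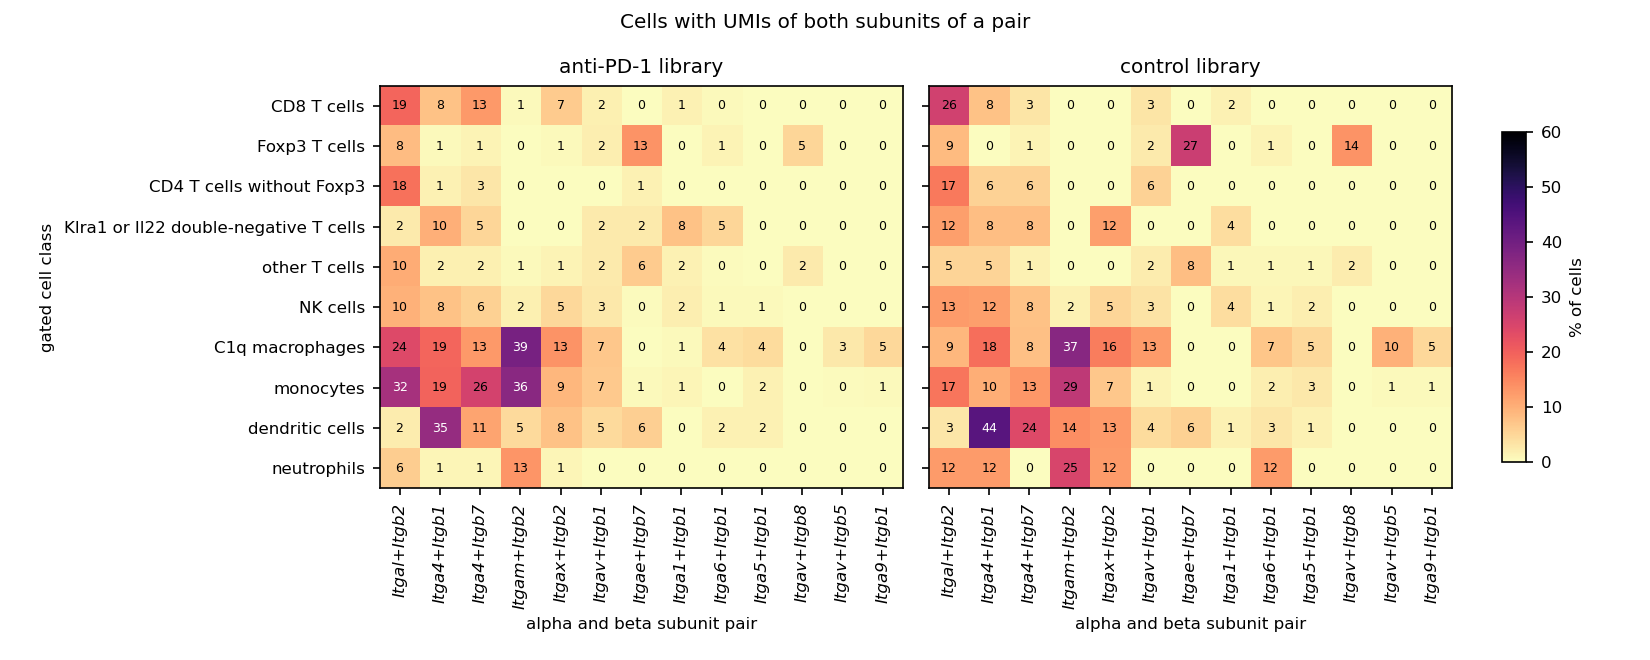
Percentage of cells with UMIs of both subunits for 13 alpha and beta pairs in the 10 gated classes, anti-PD-1 library left and control library right. The CD103 pair and the Itgav and Itgb8 pair stand out in Foxp3 T cells (13.4% and 5.10% for anti-PD-1, 27.2% and 13.6% for control), and the Itgam and Itgb2 pair in C1q macrophages.

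The libraries were compared within the 6 classes with at least 50 cells in each, over genes with at least 20 UMIs in the class, as the log2 ratio of anti-PD-1 over control. In CD8 T cells, Itgb7 was higher in the anti-PD-1 library, by 1.55 on the log2 scale (0.95 to 2.23), and Itgax was at least 1.55 higher against a floor of 3 UMIs in place of the control's 0, with an interval from 1.23 upward. Itgb3bp was lower, at -1.61 (-2.67 to -0.39). These were the 3 past 2-fold among the 12 integrin genes tested, 2 higher and 1 lower, where 16.0% of all 7575 genes tested were past 2-fold (9.70% higher and 6.31% lower). The integrin median was 0.21 and that of all genes 0.09. Itgb1 was at -0.50 (-0.96 to -0.01), Itgal at -0.15 (-0.60 to 0.34), Itgb2 at 0.33 (-0.12 to 0.81) and Itga4 at 0.79 (-0.03 to 1.76), all within 2-fold. The subtypes differed in share, and 619 anti-PD-1 but 13 control CD8 T cells fell in the Gzmk subtype. With subtypes weighted alike the Itgax bound was 0.97, and without cells holding myeloid or C1q marker UMIs it was 0.99. Both bounds rest on fewer control cells, so the floor of 3 UMIs stands for more CPM. Equal weights also raise the part of the anti-PD-1 cells with neither granzyme, where Itgax was lower than in the other subtypes. The weighting left out the cycling subtype, which had 7 control cells. The neutrophil marker list summed to 169 CPM in anti-PD-1 and 3.9 CPM in control CD8 T cells, and its part in these ratios was not tested.

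In Foxp3 T cells none of 9 integrin genes was past 2-fold, where 7.59% of 3781 genes were (4.81% higher and 2.78% lower). Itgb7 was at 0.03 (-0.29 to 0.35), Itgae was at -0.63 (-1.33 to 0.09), Itgb8 at -0.49 (-1.28 to 0.32) and Itgav at -0.26 (-0.86 to 0.35), all with intervals across 0. Itgb3 was at 0.98 (-0.52 to 2.77). The medians were 0.03 for integrin genes and 0.03 for all genes. In NK cells none of 13 was past 2-fold, where 4.89% of 7162 genes were (3.03% higher and 1.86% lower). Itgb2 (0.37, 0.06 to 0.69) and Itgb7 (0.32, 0.01 to 0.64) were somewhat higher and Itgb1 (-0.34, -0.56 to -0.13) somewhat lower in the anti-PD-1 library. The integrin median of NK cells was 0.17, and that of all genes 0.10. In the NK cells with Gzmc to Gzmg, Itga4 was lower, at 22.7 CPM from 17 UMIs for anti-PD-1 and 63.1 CPM from 23 UMIs for control (-1.48, -2.47 to -0.51), as 1 of 10 past 2-fold where 8.27% of 4438 genes were. In those without, Itga4 was at 86.3 CPM for anti-PD-1 and 83.9 CPM for control, and 1 of 11 was past 2-fold (Itgb3bp, 1.26, -0.13 to 2.88) where 5.80% of 5968 genes were. The neutrophil marker list summed to 224 CPM in anti-PD-1 and 6.95 CPM in control NK cells and to 227 and 31.6 CPM in Foxp3 T cells, and its part in these ratios was not tested. Likewise the difference between the NK subtypes was not tested.

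In C1q macrophages, Itgal was higher in the anti-PD-1 library, at 77.0 CPM (61.8 to 94.7) against 28.3 CPM (19.0 to 40.7) in the control library, a log2 ratio of 1.44 (0.82 to 2.1), with a UMI in 32.1% and 14.5% of cells. Itgav was lower, at -1.35 (-2.21 to -0.54). They were the 2 past 2-fold of 13, where 7.22% of 6759 genes were (3.82% higher and 3.40% lower). Itgb5 (-0.79, -1.34 to -0.25), Itgax (-0.70, -1.30 to -0.12) and Itgam (-0.33, -0.63 to -0.02) were lower by less, and Itgb2 was slightly higher (0.32, 0.04 to 0.59). The integrin median was -0.13 and that of all genes 0.04. The class was not made up alike, since cells with Ccl8 or Mrc1 were 30 of 187 in the anti-PD-1 and 60 of 166 in the control library, and the macrophage list summed to 15200 and 26463 CPM. In the macrophages outside the Ccl8 or Mrc1 and hypoxic gates, 146 anti-PD-1 and 85 control cells, Itgal was at 1.5 (0.69 to 2.40) and Itga4 at 1.05 (0.32 to 1.83), the 2 past 2-fold of 12 where 9.16% of 5423 genes were. Itgav was there at 19.3 CPM for anti-PD-1 and 38.6 CPM for control, within 2-fold and with an interval across 0 (-2.04 to 0.04). Itgax (-0.58, -1.36 to 0.20), Itgam (-0.07, -0.49 to 0.36) and Itgb2 (0.11, -0.24 to 0.47) also had intervals across 0 there. Itgb5 stayed lower there (-0.88, -1.57 to -0.18). The T-cell marker list summed to 31.1 CPM (4 of 4 members) in anti-PD-1 and 13.7 CPM (3 of 4) in control C1q macrophages, and the neutrophil list to 322 and 44.9 CPM, whose part in these ratios was not tested. Without the cells that held a UMI of a CD3, CD8 or NK marker gene, Itgal was at 79.4 CPM in 139 anti-PD-1 and 28.8 CPM in 141 control cells.

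In monocytes the second Itgam entry alone passed 2-fold, at 1.66 (-0.38 to 4.80) from 20 anti-PD-1 and 2 control UMIs, as 1 of 12 where 11.3% of 6779 genes did (7.17% higher and 4.12% lower). Itgb7 was at 0.49 (0.11 to 0.90), Itgal at 0.24, Itgb2 at 0.17, Itga4 at -0.09, Itgb1 at -0.28 and Itgam at -0.31. With the monocyte subtypes weighted alike Itgal was at -0.57, given without an interval because weighted levels are no counts. The integrin median was 0.04 and that of all genes 0.06. In classical monocytes alone, Itgal was higher at 1.28 (0.50 to 2.13) and Itgax lower at -1.23 (-2.50 to -0.01), 2 of 8 where 10.5% of 4845 genes were past 2-fold. The Itgal levels of nonclassical monocytes given above lay the other way, lower in the anti-PD-1 library. Monocytes of anti-PD-1 and control were 136 and 99 classical, 81 and 14 inflammatory, and 96 and 33 nonclassical cells. The macrophage list summed to 768 CPM in anti-PD-1 and 5632 CPM in control monocytes and the neutrophil list to 4629 and 83.5 CPM, and their part in these ratios was not tested. In dendritic cells Itgam was lower, at 17.4 CPM from 11 UMIs for anti-PD-1 against 43.2 CPM from 21 UMIs for control (-1.31, -2.51 to -0.19), 1 of 8 where 13.4% of 4834 genes were past 2-fold (8.27% higher and 5.17% lower). Itgb2 was at -0.57 (-1.10 to -0.03), Itga4 at 0.41 (0.04 to 0.78), Itgb1 at 0.09 and Itgb7 at -0.16. The integrin median was -0.11, against 0.08 for all genes. Migratory cells were 97 of 133 dendritic cells in the anti-PD-1 and 29 of 71 in the control library. With the dendritic subtypes weighted alike Itgb2 turned to 0.45, Itga4 to -0.22 and Itgam came to -0.19. Without the cells holding a UMI of a T- or NK-cell marker gene, Itgam was at -2.60 in dendritic cells and Itgax at -1.60 in C1q macrophages.

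**Figure D5:**
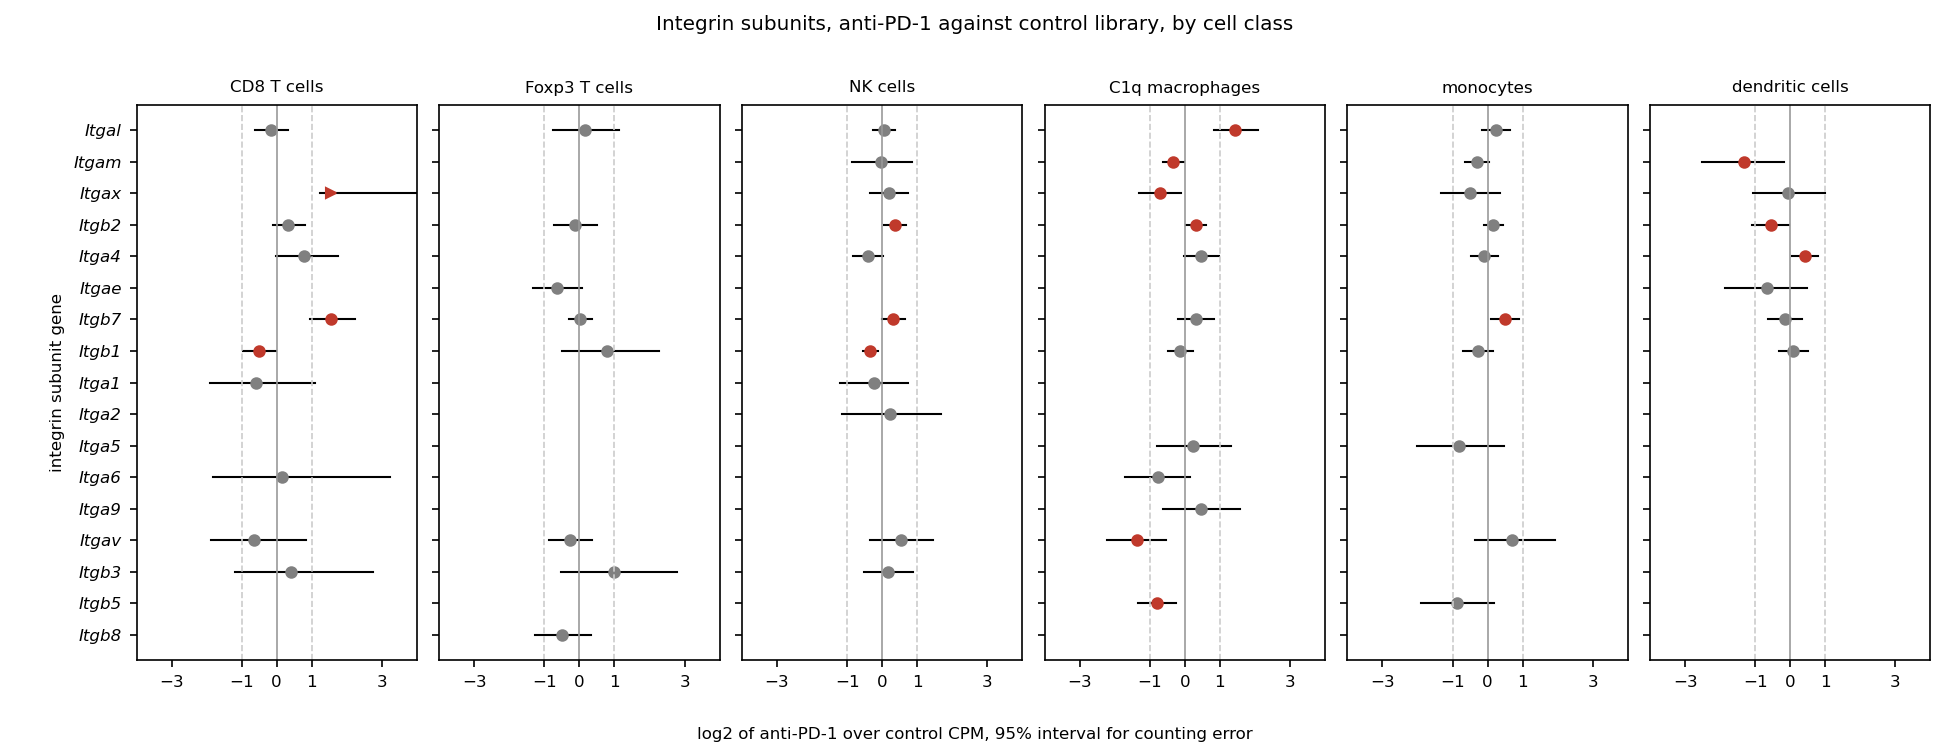
Log2 ratio of anti-PD-1 over control for 17 integrin subunit genes in 6 classes, with 95% intervals (cut at 4 on either side), red where the interval lies on 1 side of 0, a triangle for a bound and dashed lines at 2-fold. In CD8 T cells Itgb7 (1.55) and the Itgax bound (1.55) lie past the right dashed line, and in C1q macrophages Itgal (1.44) lies past the right and Itgav (-1.35) past the left one.

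The genes around the integrins were read from lists of 38 activation and actin-linkage genes, 28 ligands, 13 surface partners and 12 TGF-beta response genes. In CD8 T cells 1 of 26 activation genes was past 2-fold, the adaptor Pxn (25.3 CPM for anti-PD-1 and 11.7 CPM for control, 1.11, -0.48 to 3.41), and the list median was 0.33, against 9.70% higher, 6.31% lower and a median of 0.09 over all genes tested. Of 7 ligands, Icam1, the ligand of LFA-1, was higher, at 41.3 CPM from 158 UMIs in the anti-PD-1 and 11.7 CPM from 3 UMIs in the control library (1.82, 0.24 to 4.11), and Icam2 was lower (12.3 and 31.3 CPM, -1.35). The receptor Tgfbr1 was at 6.01 CPM for anti-PD-1 and 15.6 CPM for control (-1.38, -2.93 to 0.61), 1 TGF-beta response gene of 11 lower past 2-fold with 1 other higher. In Foxp3 T cells 0 of 24 activation genes, 0 of 9 partners and 0 of 6 TGF-beta response genes were past 2-fold, and of 6 ligands 1 was higher and 1 lower, where 4.81% of all genes were higher and 2.78% lower. Spp1, which encodes osteopontin, was at 50.4 CPM from 22 UMIs for anti-PD-1 and 7.90 CPM from 2 UMIs for control (2.67, 0.65 to 5.81), and Nrros, a holder of latent TGF-beta, at 22.9 and 47.4 CPM (-1.05, -2.42 to 0.29). Spp1 was also a leading gene of the NK cells with Gzmc to Gzmg. Those granzymes summed to 298 CPM in anti-PD-1 and 75.1 CPM in control Foxp3 T cells, and their part in the Spp1 ratio was not tested. In NK cells the activator Rasgrp2 was at 21.3 CPM for anti-PD-1 and 10.4 CPM for control (1.03, 0.06 to 2.11), the 1 of 27 activation genes past 2-fold, beside 1 of 8 ligands (Mfge8, 1.41, -0.22 to 3.45), 0 of 10 partners and 0 of 10 TGF-beta response genes, where 3.03% of all genes were higher and 1.86% lower.

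In C1q macrophages 3 of 28 activation genes were higher and none lower, the actin linker Flna (131 CPM for anti-PD-1 and 57.6 CPM for control, 1.19, 0.75 to 1.65), Rasgrp1 (1.41) and Rasgrp2 (1.01). Of 12 ligands, 3 were lower, among them fibronectin, Fn1 (98.6 CPM for anti-PD-1 and 243 CPM for control, -1.30, -1.63 to -0.98), and thrombospondin 1, Thbs1 (115 CPM for anti-PD-1 and 317 CPM for control, -1.46, -1.77 to -1.17), and 1, Icam2, was higher (1.30). Of 13 partners none was past 2-fold, and of 9 TGF-beta response genes 1, Pmepa1, was lower (-1.23), where 3.82% of all genes were higher and 3.40% lower. In the macrophages outside the Ccl8 or Mrc1 and hypoxic gates, 4 of 28 activation genes were higher and none lower. Of 10 ligands there 1 was higher and 2 lower, and 0 of 8 TGF-beta response genes were past 2-fold, where 9.16% of all genes were. The T-cell list summed to 31.1 CPM in anti-PD-1 and 13.7 CPM in control C1q macrophages, and its part was not tested. In monocytes Rasgrp2 (173 CPM for anti-PD-1 and 76.7 CPM for control, 1.17, 0.72 to 1.65) and the actin linker Vcl (29.2 CPM for anti-PD-1 and 11.9 CPM for control, 1.29) were the 2 of 29 activation genes past 2-fold, and 4 of 10 TGF-beta response genes were lower, with a median of -0.66, where 7.17% of all genes were higher and 4.12% lower, with a median of 0.06. The macrophage list, at 768 CPM in anti-PD-1 and 5632 CPM in control monocytes, moved with them, and its part was not tested. Of 10 monocyte ligands 2 were higher, both ICAM genes (Icam1 at 1.14 and Icam2 at 1.15, -0.09 to 2.67), and 1 lower, Thbs1 (-1.24). Of 13 partners 1 was lower, the tetraspanin Cd63 (-1.48). The lowest TGF-beta response gene was Pmepa1, at 6.48 CPM for anti-PD-1 and 27.3 CPM for control (-2.07, -3.29 to -0.90), and the inhibitor Smad7 was at 7.02 CPM for anti-PD-1 and 22.2 CPM for control (-1.66). In dendritic cells Icam1 was at 266 CPM in the anti-PD-1 and 59.7 CPM in the control library (2.15, 1.58 to 2.78) and the tetraspanin Cd81 at 282 and 57.6 CPM (2.29, 1.71 to 2.92), while E-cadherin, Cdh1, the ligand of CD103, was at 7.91 and 37.0 CPM (-2.23). In dendritic cells 2 of 25 activation genes (Fyb at 1.65 and Actn1 at 1.26), 2 of 7 ligands and 2 of 12 partners were higher, 1 ligand was lower, and 0 of 4 TGF-beta response genes were past 2-fold, where 8.27% of all genes were higher and 5.17% lower. The migratory dendritic cell list summed to 18245 CPM in anti-PD-1 and 6162 CPM in control dendritic cells, and its part in these ratios was not tested.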

How the data were processed

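UMI counts per gene and barcode were deposited by the authors, not normalised, in 1 matrix per library. Per the submitters' processing notes, Cell Ranger 2.1 and the mm10 build were used, and mm10 has the coordinates of GRCm38, in which positions are given (GENCODE vM21). Barcodes with at least 1000 UMIs and at most 10% mitochondrial UMIs were kept. Cells were gated by summed UMIs of marker genes, none of them an integrin gene, such as at least 3 of Cd3d, Cd3e and Cd3g for T cells, 2 of Ncr1, Klrb1c and Klre1 for NK cells and 5 of C1qa, C1qb and C1qc for macrophages. These minimums were set after the data had been looked at. Barcodes that met more than 1 lineage (3 anti-PD-1, 0 control) were set aside, no doublet caller was run, and 4 barcodes were kept in both libraries.

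Levels are CPM of the UMIs summed over each class in each library, with exact Poisson intervals. Shares of cells have exact Clopper-Pearson intervals, and log2 ratios conditional binomial ones. A ratio against 0 UMIs is a bound at 3 UMIs. Free RNA came from barcodes of 10 to 50 UMIs and was estimated as 2.84% of anti-PD-1 and 1.74% of control cell UMIs. The calculations ran in Python 3.11.15 with numpy 2.4.6, scipy 1.17.1, pandas 2.3.3 and matplotlib 3.10.9. Only the log2 ratios and their intervals were tested on simulated data, with Poisson counts per class that hold no spread between cells. The members and lists were chosen with earlier results of these data known.

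Every member with at least 20 UMIs is described. In each class comparison the text names the members past 2-fold whose interval lies on 1 side of 0 and up to 6 others with the most UMIs, and from each gene list up to 4 members with the largest ratio. The count of surface partners past 2-fold in CD8 T cells is not reported here. Alternatives changed the UMI minimum, the mitochondrial limit, the gates, the depth (cells thinned to 1000 UMIs), the normalisation, the free RNA, the subtype weights and the gene minimum.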

Additional observations from a re-analysis of the deposited data

Results flagged for a closer look

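Itgax differed in direction between cell classes. In CD8 T cells of the anti-PD-1 library it was at least 1.55 higher (log2), with an interval from 1.23 upward. This bound sets a floor of 3 UMIs for the control's 0. The bound was 0.97 with subtypes weighted alike and 0.99 without cells holding a marker UMI of the other lineages. The control had no Itgax UMI in either case, and with fewer control cells the floor stands for more CPM. Equal weights also give more part to the anti-PD-1 CD8 T cells with neither granzyme, where Itgax was lower. Itgax was at -0.70 (-1.30 to -0.12) in C1q macrophages. Itgb2 was at 0.37 (0.06 to 0.69) in NK cells and 0.32 (0.04 to 0.59) in C1q macrophages, but at -0.57 (-1.10 to -0.03) in dendritic cells. These intervals lay on opposite sides of 0, and the differences between classes were not tested. In the macrophages outside the Ccl8 or Mrc1 and hypoxic gates both intervals lay across 0. Itgax was there at -0.58 (-1.36 to 0.20) and Itgb2 at 0.11 (-0.24 to 0.47). With subtypes weighted alike Itgb2 in dendritic cells turned to 0.45, and conventional dendritic cells had 254 CPM for anti-PD-1 and 206 CPM for control, and migratory ones 26.6 CPM for anti-PD-1 and no UMI for control.

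Itgb2l, which was under the minimum for comparison, had 16 UMIs in the anti-PD-1 and 0 in the control library, and 15 of them were in neutrophils, of which the control library had 8.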

How the results depend on the processing

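No paired analysis was possible because each group had 1 library, and for the same reason no replicate could be left out. Of 634 integrin gene ratios recomputed under 11 alternatives, 617 stayed within their counting interval, 14 moved beyond it and 3 reversed. A reversal is a change of sign in a ratio whose own interval lay on 1 side of 0. With subtypes weighted alike 6 of 57 moved and 2 reversed, and in thinned cells 5 of 39 moved and 1 reversed. Without cells holding a marker UMI of the other lineages 3 of 62 moved. None changed under the other alternatives, which share UMIs with the main values and are a weak check. Itgal in monocytes, whose interval lay across 0, was among the 14, at 0.24 and, with subtypes weighted alike, at -0.57. The count past 2-fold in Foxp3 T cells (0) became 1 with a minimum of 2000 UMIs, with at most 5% mitochondrial UMIs and with 1 more marker UMI per gate, and that in NK cells (0) became 1 with the first 2 of these, in thinned cells and without cells holding a marker UMI of the other lineages. In thinned cells the counts were 0 in C1q macrophages (2), monocytes (1) and dendritic cells (1). Itgal and Itgav of C1q macrophages could not be compared in thinned cells, so their 9 alternatives given below leave thinning out. In monocytes the count was 2 with 2000 UMIs and with subtypes weighted alike, and 0 with 50 UMIs per gene. In dendritic cells it was 0 with 50 UMIs per gene and with subtypes weighted alike, and 2 without cells holding a marker UMI of the other lineages. Itgam in C1q macrophages reversed to 0.06 in thinned cells, and with subtypes weighted alike Itga4 (-0.22) and Itgb2 (0.45) in dendritic cells reversed. The cause was not tested, except that thinning and the higher gene minimum leave fewer genes. In CD8 T cells Itgb7 ranged from 1.34 to 2.05 (past 2-fold in 10 of 10 alternatives) and Itgax from 0.97 to 1.55 (7 of 9), and in C1q macrophages Itgal from 1.17 to 1.53 (9 of 9) and Itgav from -2.13 to -1.31 (9 of 9), although Itgav was within 2-fold in the macrophages outside the Ccl8 or Mrc1 and hypoxic gates. Leaving out shared barcodes or cells holding other lineages' markers, and widening the Foxp3 gate by Ikzf2 or Il2ra, were chosen after seeing the data. Foxp3 T cells have 1 subtype, so no equal weighting was possible. Among the 6 classes compared, the control Foxp3 and CD8 T cells are limited most by their small UMI totals, where 3 UMIs stand for 11.9 and 11.7 CPM.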
